A study of Homo sapiens with 12 samples.

Results

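Jiyuan Oridonin A (JOA) is a kaurene diterpenoid from the plant Isodon rubescens, and the mRNA response to it was measured in MOLM-13 and in THP-1, a pair of established human acute myeloid leukemia (AML) lines. Both lines carry a rearrangement of the mixed lineage leukemia (MLL) gene, and MOLM-13 cells also carry an internal tandem duplication in FLT3. The question taken up here was which genes moved the same way with JOA in both lines. Every group held 3 libraries: MOLM-13 cells given DMSO as control, MOLM-13 cells given 0.5 μM JOA, THP-1 cells given DMSO as control and THP-1 cells given 2 μM JOA, all collected after 48 h by the labels and methods, although a figure legend of the study on these comparisons gives a longer incubation. Each line received 1 dose, so line and dose cannot be told apart in any difference between the lines. Each model is 1 cell line grown in culture, and nothing in the sample labels says whether the replicates were separate cultures, so p-values measure the spread between these libraries, which may be technical.

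Expression was given as FPKM, a fragment count scaled to transcript length and to the mapped fragments of the library, for 20030 named genes in all 12 libraries. A gene was tested where its mean FPKM was at least 1 in each line, which kept 9240 genes, 46.1% of the table. The filter used the mean over the control and JOA libraries of a line together, so a gene near 1 FPKM may have passed through the group in which it was high. For each tested gene 1 JOA effect common to both lines was estimated on log2(FPKM + 0.1) with limma, with each control library set against the JOA library of the same line and replicate number, which gave 6 pairs. This common log2 effect is JOA minus control, and adding 0.1 makes it understate the change of genes with low FPKM. A gene was called where its limma p, adjusted over all 9240 genes by the Benjamini-Hochberg method, was under 0.05. The number of reads behind each library is unknown from FPKM, so no counting interval is given.

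As background, monocytic AML cells are blocked at an early stage of the path to monocytes and macrophages. On that path cells gain surface proteins such as the integrin CD11b, assemble the phagocyte NADPH oxidase that makes superoxide, and enlarge their lysosomes, whose genes are driven by the transcription factors TFEB and TFE3 through a CACGTG-centred element. A separate system, in which KEAP1 holds back the transcription factor NRF2 until electrophiles or oxidants modify it, drives antioxidant, NADPH-producing and iron-handling genes through the antioxidant response element. Heat shock factor drives chaperone genes through repeated GAA blocks.

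Members of these 3 systems were among the called genes, and the promoter stretches below show the letters that their transcription factors are known to read. The stretches come from RefSeq (GRCh38.p14) and are written 5′ to 3′ on the strand of the gene, with the matched letters in capitals. For the lysosomal genes CTSD (chr11:1763928-1764019, minus strand), CTSA (chr20:45891248-45891334, plus strand), LAMP1 (chr13:113297002-113297238, plus strand) and ATP6V0D1 (chr16:67481166-67481261, minus strand) the capitals mark CACGTG.
CTSD: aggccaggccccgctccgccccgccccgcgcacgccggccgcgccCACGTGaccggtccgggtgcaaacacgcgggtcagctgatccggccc
CTSA: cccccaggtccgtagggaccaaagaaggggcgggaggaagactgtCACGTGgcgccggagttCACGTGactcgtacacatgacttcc
LAMP1: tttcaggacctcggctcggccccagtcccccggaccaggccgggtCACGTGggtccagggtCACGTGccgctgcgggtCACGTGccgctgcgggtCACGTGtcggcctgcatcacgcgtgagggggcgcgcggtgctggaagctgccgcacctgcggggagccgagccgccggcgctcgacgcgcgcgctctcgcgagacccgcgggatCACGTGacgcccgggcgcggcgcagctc
ATP6V0D1: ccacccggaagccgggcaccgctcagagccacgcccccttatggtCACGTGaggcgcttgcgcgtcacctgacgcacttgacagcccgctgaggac

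For the NADPH-producing enzymes ME1 (chr6:83431135-83431233, minus strand) and PGD (chr1:10398818-10398916, plus strand) the capitals mark the core of the antioxidant response element, TGACNNNGC, which in PGD lies on the opposite strand and so reads reversed and complemented. For the near-identical genes HSPA1A (chr6:31815392-31815489, plus strand) and HSPA1B (chr6:31827588-31827685, plus strand) they mark the heat shock core GAANNTTC.
ME1: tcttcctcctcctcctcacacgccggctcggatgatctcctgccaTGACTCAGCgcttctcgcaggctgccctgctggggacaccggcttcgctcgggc
PGD: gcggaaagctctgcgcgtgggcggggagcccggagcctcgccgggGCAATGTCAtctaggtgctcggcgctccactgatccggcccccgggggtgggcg
HSPA1A: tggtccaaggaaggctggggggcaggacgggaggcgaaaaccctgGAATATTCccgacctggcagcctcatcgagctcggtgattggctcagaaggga
HSPA1B: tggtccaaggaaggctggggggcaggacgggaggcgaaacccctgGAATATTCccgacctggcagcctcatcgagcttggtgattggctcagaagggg

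Of the 9240 tested genes 7726 had a promoter in the RefSeq table, and the 250 bases before the start were searched on both strands. CACGTG was in 9.62% of these windows, in 9.59% of the windows of genes called higher with JOA, in 5.88% of those called lower, and in 4 of the 13 windows of called lysosome and autophagy genes, the 4 printed above. TGACNNNGC was in 12.6% of all windows, in 15.1% of those called higher, in 13.7% of those called lower, in 2 of the 8 windows of called NRF2 targets and in 6 of the 13 of called lysosome and autophagy genes, among them CTSD, CTSA, LAMP1 and ATP6V0D1, so these 4 windows held both motifs. GAANNTTC was in 3.93% of all windows, in 2.74% of those called higher and in 3.92% of those called lower. Over all tested members, called or not, CACGTG was in 8 of 29 windows of lysosome and autophagy genes (27.6%). TGACNNNGC was in 9 of these 29 and in 5 of 24 windows of tested NRF2 targets (20.8%). These matches are a description of letters in a window, and a window without a match says nothing of the factor.

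JOA changed 331 genes in the common estimate, 3.58% of those tested. The number called higher was 269 (2.91%) and the number called lower was 62 (0.671%), so 81.3% of the calls were rises. All 331 had a mean difference of the same sign in MOLM-13 and in THP-1, 302 of them had all 6 pairs on one side, 249 higher and 53 lower, and the other 29 had 5 of 6. Over all tested genes, all 6 pairs were higher with JOA in 838 genes (9.07%) and lower in 426 (4.61%). The 3 JOA values stood above the 3 control values without overlap in both lines for 131 tested genes (1.42%), 73 of them called, and below them for 74 (0.801%), 21 of them called. For any gene with all 6 pairs on one side the exact two-sided sign-flip permutation test gave p = 0.03125, the smallest that 6 pairs allow.

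The shared changes were small. The common log2 effect of the genes called higher had a median of 0.26, with a median of 0.20 in MOLM-13 and 0.30 in THP-1, and ran from 0.12 to 0.83. Among the genes called lower the median was −0.24, with −0.18 in MOLM-13 and −0.25 in THP-1, and the range −0.82 to −0.13. The median over all tested genes was 0.02. Only 11 called genes, 8 higher and 3 lower, passed a size of 0.58 on the log2 scale. The size was larger in THP-1 for 264 of the 331 genes and larger in MOLM-13 for 67. Both lines on their own gave an unadjusted limma p under 0.05 for 288 of the 331 genes. These genes were chosen by the common effect on the same libraries. Agreement of the lines in sign or p among them is therefore no independent evidence. Over all tested genes, both lines gave such a p with both higher for 314, both lower for 88 and opposite signs for 92. Across all 9240 genes the effects in the lines were weakly related (Pearson r = 0.267, Spearman rho = 0.271, across genes, which are not independent replicates and share library and base composition), and 59.5% of genes had the same sign in both, 35.6% higher and 24.0% lower.

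**Figure D1:**
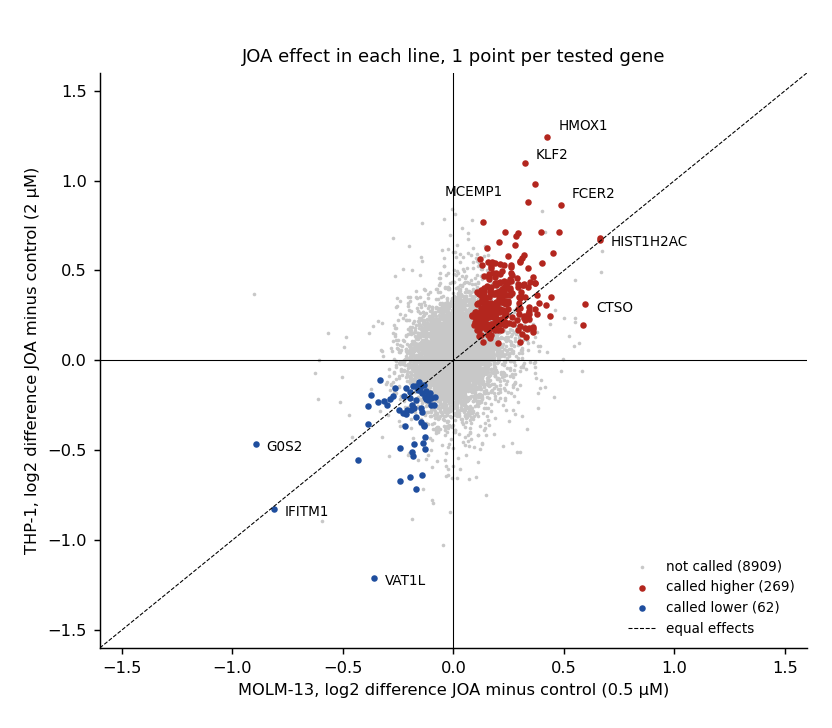
Each point is 1 tested gene, with the log2 JOA effect in MOLM-13 (0.5 μM) on the horizontal axis and in THP-1 (2 μM) on the vertical axis, red and blue for the 269 genes called higher and the 62 called lower in the common effect. All called genes lie to the upper right or lower left of the origin, most of them above the dashed line of equal effects when higher and below it when lower, and 2 genes that were not called fall beyond the axes.

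The calls rested on the pairing by replicate number and on THP-1. When libraries were not paired by number the calls came to 2, RGS18 among them. With MOLM-13 alone no gene was called with limma (1150 at an unadjusted p under 0.05), and with THP-1 alone 829 were called higher and 376 lower. Leaving out THP-1 pair 1, 2 or 3 left 43, 18 and 7 calls, and leaving out the first MOLM-13 pair left 184. The 7 genes called without THP-1 pair 3 were B4GALT5, GPT2, HIST1H2BK, IGFBP4, MT2A, TFE3 and THEMIS2, so every other gene described as called below lost its call there. All 331 genes kept their direction in every one of these fits, which reuse the libraries that chose the genes, so this is no independent support. With library medians set equal 67.6% of the calls were rises and with quantile normalization 66.3%, in place of 81.3%.

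The 12 genes of a monocytic leukemia list, CD33, LYZ, SPI1 and CEBPA among them, all passed the filter, whereas none of 7 T cell, 6 B cell or 6 erythroid markers passed it in both lines. Some of these were present in 1 line, CD79B, a B cell receptor chain, at 7.85 to 9.72 FPKM in THP-1, and the T cell genes CD3D and IL7R at 1.53 to 3.79 and 2.76 to 4.76 FPKM in MOLM-13. The B cell markers summed to 9.56 to 11.2 FPKM in THP-1 controls and 8.96 to 10.4 with JOA, and the T cell markers to 4.90 to 7.44 FPKM in MOLM-13 controls and 5.54 to 6.79 with JOA, with overlap between treatments in both. The erythroid markers summed to at most 0.695 FPKM in any library. Of 9 fibroblast and epithelial markers 1 passed, the keratin KRT8, with 1.45 to 1.79 FPKM in MOLM-13 controls and 0.815 to 1.19 with JOA, and 0.731 to 2.41 FPKM in THP-1 controls and 0.568 to 1.21 with JOA (limma adjusted p = 0.122). The summed level of this list ran from 8.39 to 10.1 FPKM in MOLM-13 controls and from 8.07 to 8.15 with JOA, and from 1.075 to 5.97 FPKM in THP-1 controls and from 1.03 to 2.04 with JOA, and its part in the results was not tested.

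The lysosome and autophagy list held more calls than any other list. Of 40 tested members of the list 15 were called higher and 0 lower (37.5% against 2.91% of all tested genes called higher), and 21 were higher in all 6 pairs. In both lines on average 36 were higher and 0 lower, where 35.6% and 24.0% of all tested genes were. At an unadjusted limma p under 0.05, 31 of the 40 were higher and 0 lower, where 2163 of all 9240 tested genes passed in either direction. The gene lists here and below were written with earlier results of these data known. Their shares above those of all tested genes are therefore no independent evidence. The median common effect of the 40 genes was 0.19, 0.13 in MOLM-13 and 0.28 in THP-1, against 0.02 over all tested genes. The 15 called genes span lysosomal proteases (CTSL, CTSD, CTSA), the cholesterol exporter NPC2, the acid lipase LIPA, the acid ceramidase ASAH1, the saposin precursor PSAP, the glucuronidase GUSB, the membrane proteins LAMP1 and CD68, the proton pump subunits ATP6V0D1 and ATP6AP1, the autophagy receptors SQSTM1 and NBR1 and the transcription factor TFE3.

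CTSL, which encodes cathepsin L, a cysteine protease of the lysosome, measured 5.12, 5.70 and 5.18 FPKM in MOLM-13 controls and 5.76, 6.97 and 7.14 FPKM with JOA. In THP-1 it measured 17.7, 20.6 and 18.3 FPKM in controls and 26.5, 26.9 and 29.6 FPKM with JOA. All JOA values of CTSL stood above the controls of the same line, and the common rise was 1.34-fold (log2 0.43, SE 0.06, limma adjusted p = 0.0185). CTSD, the aspartic protease cathepsin D, measured 78.9, 70.0 and 69.4 FPKM in MOLM-13 controls and 114, 77.9 and 74.35 FPKM with JOA. In THP-1 CTSD measured 137, 155 and 205 FPKM in controls and 218, 206 and 269 FPKM with JOA. The CTSD groups overlapped in MOLM-13, where the first pair differed most, and were separate in THP-1 (common rise 1.30-fold, log2 0.37, SE 0.07, limma adjusted p = 0.0235).

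TFE3, one of the transcription factors of this gene network, rose in every pair. It measured 6.87, 6.31 and 5.59 FPKM in MOLM-13 controls and 8.59, 7.57 and 7.02 FPKM with JOA, and 5.59, 5.85 and 6.905 FPKM in THP-1 controls and 7.48, 7.62 and 8.23 FPKM with JOA. Neither line showed overlap of the TFE3 groups, the rise was 1.25-fold (log2 0.32, SE 0.04, limma adjusted p = 0.0165), and TFE3 stayed called when any 1 pair was left out. Its relative TFEB was not called, with a common log2 effect of 0.11 (SE 0.07, limma adjusted p = 0.377) and 4 of 6 pairs higher.

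SQSTM1, which encodes the autophagy receptor p62 and is also an NRF2 target, measured 32.4, 31.8 and 34.2 FPKM in MOLM-13 controls and 40.2, 35.7 and 39.5 FPKM with JOA. In THP-1 the values of SQSTM1 were 29.2, 29.1 and 29.3 FPKM in controls and 43.4, 37.7 and 46.0 FPKM with JOA. The groups were separate in both lines (1.30-fold, log2 0.38, SE 0.06, limma adjusted p = 0.0203). CD68, a lysosomal membrane protein used as a macrophage marker, went from 60.5, 57.0 and 54.6 FPKM to 91.3, 68.3 and 66.3 FPKM in MOLM-13 and from 122, 135 and 135 FPKM to 182, 166 and 157 FPKM in THP-1. CD68 also showed no overlap in either line, and its effect was of like size in both, 0.38 and 0.36 on the log2 scale. The other called members had common log2 effects between 0.18 for NBR1 and 0.40 for NPC2. Among the 25 members that were not called, CTSB, the cysteine protease cathepsin B, had an effect of 0.11 (limma adjusted p = 0.234) and the peptidase TPP1 an effect of 0.37 (limma adjusted p = 0.055).

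Of 8 tested genes of the phagocyte NADPH oxidase 4 were called, all higher, where 2.91% of all tested genes were. All 8 were higher in both lines on average, against 35.6% of all tested genes. Among those called were CYBB, the membrane-bound catalytic subunit, and the cytosolic subunits NCF1 and NCF4. CYBB measured 4.85, 5.75 and 7.92 FPKM in MOLM-13 controls and 8.32, 7.13 and 8.13 FPKM with JOA, and 9.455, 10.6 and 13.3 FPKM in THP-1 controls and 14.5, 12.9 and 17.5 FPKM with JOA. Control and JOA values of CYBB overlapped in both lines, while each of the 6 JOA values was above its own control (1.32-fold, log2 0.40, SE 0.08, limma adjusted p = 0.0291). NCF1 measured 20.3, 26.7 and 28.7 FPKM in MOLM-13 controls and 35.65, 27.9 and 36.1 FPKM with JOA, and 7.88, 12.9 and 16.3 FPKM in THP-1 controls and 13.1, 17.95 and 22.0 FPKM with JOA. The NCF1 groups overlapped in both lines and each pair rose (1.39-fold, log2 0.47, SE 0.08, limma adjusted p = 0.0230). NCF4 rose 1.14-fold (limma adjusted p = 0.0263), also in all 6 pairs. NCF1 has near-identical pseudogene copies, so its reads may have been divided among them. The partner of CYBB, CYBA, had a log2 effect of 0.06 (limma adjusted p = 0.328), and the GTPases RAC1 and RAC2, which switch the oxidase on, had effects of 0.07 and 0.06.

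**Figure D2:**
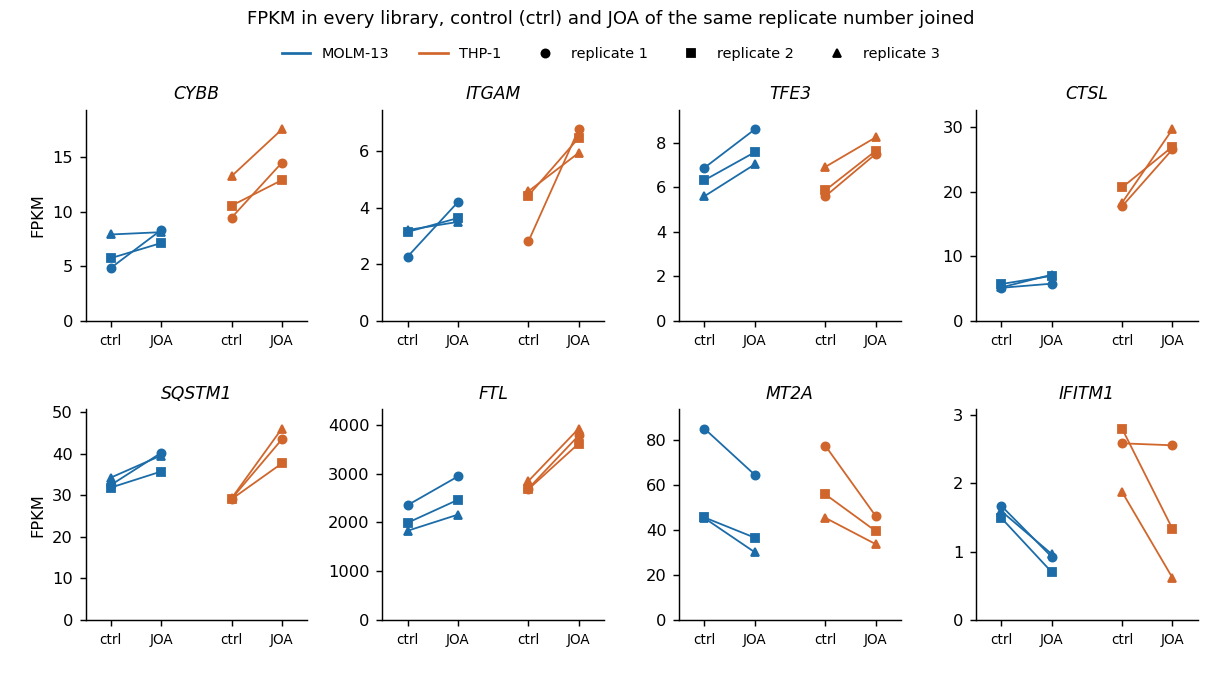
FPKM on the vertical axis of each panel for 8 called genes in all 12 libraries, blue for MOLM-13 and orange for THP-1, with a line joining the control (ctrl) and JOA library of the same replicate number. Every line rises for CYBB, ITGAM, TFE3, CTSL, SQSTM1 and FTL and falls for MT2A and IFITM1, while for MT2A the control and JOA values overlap within each line.

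Of 22 tested monocyte and macrophage markers 6 were called higher and 0 lower (27.3% against 2.91% of all tested genes called higher), with a list median of 0.20. In both lines on average 18 were higher, against 35.6% of all tested genes. At an unadjusted limma p under 0.05, 17 were higher and 0 lower, against 2163 of all 9240 tested genes in either direction. ITGAM encodes CD11b, the integrin alpha chain gained as myeloid cells mature. It measured 2.27, 3.14 and 3.21 FPKM in MOLM-13 controls and 4.20, 3.63 and 3.50 FPKM with JOA, and 2.81, 4.43 and 4.58 FPKM in THP-1 controls and 6.77, 6.47 and 5.94 FPKM with JOA. The ITGAM groups did not overlap in either line, with a rise of 1.47-fold (log2 0.55, SE 0.13, limma adjusted p = 0.0434). FCER2, the low-affinity IgE receptor CD23, rose 1.597-fold (log2 0.68, SE 0.13, limma adjusted p = 0.0267). Its values in MOLM-13 were 1.395, 3.54 and 2.52 FPKM in controls and 2.53, 3.60 and 3.93 FPKM with JOA, which overlapped, and in THP-1 1.54, 3.21 and 3.32 FPKM in controls and 4.07, 5.14 and 5.04 FPKM with JOA, which did not.

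The other 4 called markers were CD68, described above, CD33, the adhesion receptor ADGRE5 and the nuclear antigen MNDA. CD33, a sialic acid-binding receptor of myeloid cells, went from 20.7 to 22.2 FPKM in MOLM-13 controls to 23.3 to 24.0 FPKM with JOA, and from 5.38 to 6.01 FPKM in THP-1 controls to 6.48 to 7.905 FPKM with JOA, without overlap in either line (1.16-fold, limma adjusted p = 0.0291). LYZ, which encodes lysozyme, was not called, with a log2 effect of 0.01 (SE 0.08, limma adjusted p = 0.950), and neither was CSF1R, the receptor for macrophage colony-stimulating factor, with 0.04 (SE 0.05, limma adjusted p = 0.712). A further 24 markers of the list, CD14 and CD163 among them, lay under the filter in at least 1 line. Among 21 tested myeloid transcription factors 3 were called higher, CEBPD, KLF4 and ID2, with log2 effects of 0.22, 0.23 and 0.25, whereas SPI1 and CEBPA, which set myeloid identity, were not called (0.12, limma adjusted p = 0.0950, and 0.02, limma adjusted p = 0.835). In the adhesion list PECAM1 (CD31) and SELPLG, the P-selectin ligand, rose beside ITGAM, 3 of 16 tested. For the transcription factors and the adhesion list alike, the share to set beside these counts is 2.91% of all tested genes called higher.

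Of 30 tested NRF2 targets 10 were called higher and 0 lower (33.3% against 2.91% of all tested genes called higher), and the list median was 0.20, 0.10 in MOLM-13 and 0.30 in THP-1. At an unadjusted limma p under 0.05, 22 were higher and 1 lower, against 2163 of all 9240 tested genes in either direction. HMOX1, which encodes heme oxygenase 1, the enzyme that opens the heme ring, had the largest common rise of all called genes, 1.78-fold (log2 0.83, SE 0.17, limma adjusted p = 0.0315). Its values in MOLM-13 were 2.36, 1.20 and 0.988 FPKM in controls and 2.33, 1.80 and 1.72 FPKM with JOA, and in THP-1 1.18, 1.90 and 1.77 FPKM in controls and 3.20, 3.23 and 5.64 FPKM with JOA. HMOX1 rose in 5 of 6 pairs, the first MOLM-13 pair being the exception, and its groups overlapped in MOLM-13 and were separate in THP-1.

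The called NRF2 targets PGD, TKT and TALDO1 belong to the pentose phosphate pathway, a main source of NADPH. PGD measured 123.1, 116.7 and 121.5 FPKM in MOLM-13 controls and 150, 134 and 137 FPKM with JOA, and 156, 152 and 164 FPKM in THP-1 controls and 239, 205 and 224 FPKM with JOA. Without overlap in either line, PGD rose 1.28-fold (log2 0.36, SE 0.05, limma adjusted p = 0.0185). TKT and TALDO1 rose by less, 1.14-fold and 1.105-fold, and ME1, the cytosolic malic enzyme, which also makes NADPH, rose 1.31-fold with no overlap in either line.

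Other called NRF2 targets were the glutathione transferase MGST1, the epoxide hydrolase EPHX1, SQSTM1 and the ubiquitin ligase TRIM16, with log2 effects of 0.31, 0.37, 0.38 and 0.32. Several well-known targets were not called. NQO1, a quinone reductase, had a common log2 effect of 0.32 (limma adjusted p = 0.0548), SRXN1 0.26 (0.0595 by the same test), TXNRD1, thioredoxin reductase, 0.20 (0.0991) and GCLM, of glutathione synthesis, 0.23 (0.204). TXNRD1 measured 45.1, 42.04 and 41.0 FPKM in MOLM-13 controls and 43.1, 45.4 and 41.7 FPKM with JOA, against 43.0, 45.3 and 52.2 FPKM in THP-1 controls and 57.4, 58.8 and 65.4 FPKM with JOA, so the THP-1 groups were separate and the MOLM-13 groups were not. Its effect differed between the lines (limma adjusted p = 0.0372). The transcript of NRF2 itself, NFE2L2, had an effect of 0.02 (limma adjusted p = 0.729).

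Both ferritin chains, which store iron, were called higher with HMOX1 among 20 tested genes of heme and iron handling. The share of all tested genes called higher was 2.91%. FTL, the light chain, measured 2352, 1993 and 1829 FPKM in MOLM-13 controls and 2941, 2463 and 2159 FPKM with JOA. In THP-1 FTL measured 2694, 2680 and 2846 FPKM in controls and 3780, 3616 and 3922 FPKM with JOA. All 6 pairs of FTL rose, with overlap in MOLM-13 alone (1.30-fold, log2 0.38, SE 0.05, limma adjusted p = 0.0167). FTH1, the heavy chain, rose 1.19-fold (limma adjusted p = 0.0423), in 5 of 6 pairs. Both have processed pseudogenes with which reads may be shared.

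Of 20 tested heat shock and chaperone genes 2 were called, both higher, where 2.91% of all tested genes were, the near-identical HSPA1A and HSPA1B, which encode the inducible HSP70. HSPA1B measured 13.1, 6.03 and 7.05 FPKM in MOLM-13 controls and 15.1, 9.26 and 10.03 FPKM with JOA, and 12.0, 8.12 and 11.7 FPKM in THP-1 controls and 15.5, 10.1 and 15.4 FPKM with JOA. Control and JOA values of HSPA1B overlapped in both lines, with the first MOLM-13 pair high and the second THP-1 pair low in both treatments, but each pair rose (1.32-fold, log2 0.40, SE 0.05, limma adjusted p = 0.0167). HSPA1A rose 1.27-fold (limma adjusted p = 0.0304), and how reads were divided between the 2 copies is unknown. HSPA8, the constitutive HSP70, had a log2 effect of 0.04 (limma adjusted p = 0.711) and the co-chaperone DNAJB1 0.09 (limma adjusted p = 0.113).

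The stress response driven by the transcription factor ATF4 had 2 of 22 tested genes called higher and 3 called lower, where 2.91% and 0.671% of all tested genes were, and a list median of −0.11. It leaned lower, with 13 genes lower and 2 higher in both lines on average, where 24.0% and 35.6% of all tested genes were. At an unadjusted limma p under 0.05, 10 were lower and 2 higher, against 2163 of all 9240 tested genes in either direction. The genes called higher were DDIT3, which encodes the stress-induced transcription factor CHOP, and PPP1R15A, which reverses phosphorylation of the initiation factor eIF2α. DDIT3 measured 4.60, 5.20 and 4.88 FPKM in MOLM-13 controls and 4.66, 5.85 and 5.37 FPKM with JOA, and 10.7, 10.4 and 10.5 FPKM in THP-1 controls and 13.9, 13.3 and 13.9 FPKM with JOA (1.18-fold, limma adjusted p = 0.0447). The DDIT3 groups overlapped in MOLM-13 and were separate in THP-1. PHGDH and PSAT1, the first enzymes of serine synthesis, and the lipoprotein receptor VLDLR were called lower. In the unfolded protein response of the endoplasmic reticulum the ER-phagy receptor CCPG1 and the co-chaperone DNAJC3 were called higher, 2 of 19 tested.

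Among the 15 genes with the largest common rise and all 6 pairs higher, the first was KLF2, a Krüppel-like transcription factor of quiescent cells and macrophages. It measured 1.67, 2.95 and 2.56 FPKM in MOLM-13 controls and 2.59, 3.02 and 3.25 FPKM with JOA, and 4.18, 2.73 and 1.15 FPKM in THP-1 controls and 7.43, 5.54 and 3.42 FPKM with JOA. The KLF2 values varied between replicates and the groups overlapped in both lines, with every JOA value above its own control and a rise of 1.64-fold (log2 0.71, SE 0.15, limma adjusted p = 0.0333). MCEMP1, a membrane protein of mast cells and monocytes, measured 8.42, 8.09 and 8.89 FPKM in MOLM-13 controls and 11.4, 10.95 and 9.80 FPKM with JOA, and 13.4, 12.0 and 18.5 FPKM in THP-1 controls and 27.0, 21.9 and 32.0 FPKM with JOA. MCEMP1 was separate in both lines (1.53-fold, log2 0.61, SE 0.10, limma adjusted p = 0.0200). ANXA1, a phospholipid-binding protein that dampens inflammation, rose 1.38-fold (log2 0.46, SE 0.07, limma adjusted p = 0.0185), from 5.79 to 9.80 FPKM in MOLM-13 controls to 7.35 to 11.6 FPKM with JOA, which overlapped, and from 11.1 to 15.9 FPKM in THP-1 controls to 18.1 to 25.96 FPKM with JOA, which did not.

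FGR, a Src-family kinase of phagocytes, rose 1.59-fold (log2 0.67, SE 0.16, limma adjusted p = 0.0451). In MOLM-13 it measured 1.42, 2.88 and 2.83 FPKM in controls and 4.25, 3.39 and 3.35 FPKM with JOA, and the first pair of FGR, 1.52 on the log2 scale, stood apart from the other two at 0.23 and 0.24. In THP-1 FGR measured 1.385, 3.50 and 6.31 FPKM in controls and 3.14, 5.36 and 7.88 FPKM with JOA, which overlapped. The histone genes HIST1H2AC and HIST1H2BK rose 1.59-fold and 1.44-fold, and HIST1H2AC had a like first MOLM-13 pair of 1.55. HIST1H2BK went from 20.3, 22.4 and 25.3 FPKM to 32.4, 29.2 and 31.3 FPKM in MOLM-13 and from 13.2, 10.5 and 10.9 FPKM to 23.7, 16.98 and 13.2 FPKM in THP-1, and stayed called without any 1 pair. Histone gene copies resemble each other, so their reads may be shared, and 5 other tested histone genes were not called. Others of the 15 were TBC1D2, a Rab GTPase-activating protein, the SOCS-box protein ASB13, the lysosomal protease CTSO, the uncharacterised locus LOC105373780 and MMP24OS, transcribed opposite MMP24, with common log2 effects of 0.49, 0.47, 0.45, 0.68 and 0.45. Whether the counting used strand was not given, so reads of MMP24OS and MMP24 may not be separated. CTSO was the one among the 15, with a log2 effect of 0.60 in MOLM-13 and 0.31 in THP-1, whose larger effect was in MOLM-13.

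**Figure D3:**
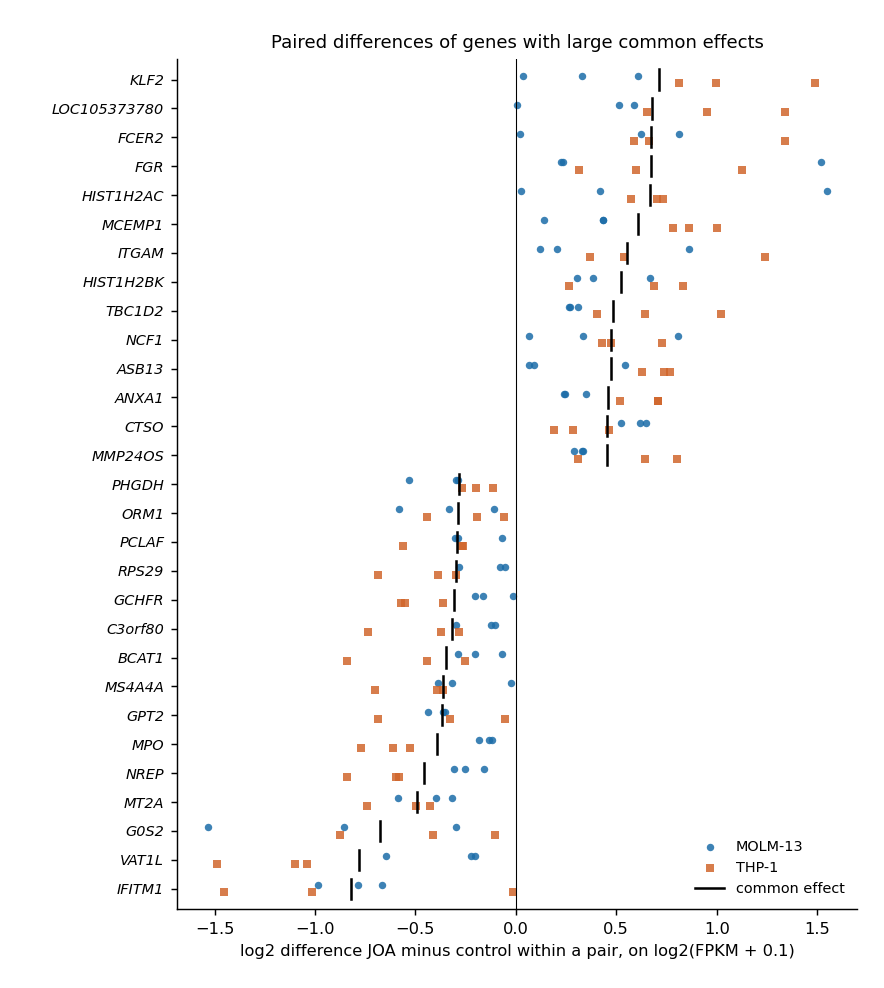
Log2 JOA minus control within each pair on the horizontal axis for genes among the 15 largest common rises and the 15 largest common falls of called genes with all 6 pairs on one side, blue circles for MOLM-13, orange squares for THP-1 and a bar for the common effect. The first MOLM-13 pairs of FGR and HIST1H2AC lie at 1.52 and 1.55, far to the right of the other MOLM-13 pairs, and most THP-1 squares lie farther from 0 than the circles.

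Metallothioneins, small cysteine-rich proteins that bind zinc and copper, had a median common effect of −0.33 over 8 tested members of a list that also holds zinc transporters. Of the 8, 7 were lower in both lines on average, against 24.0% of all tested genes. MT2A and MT1G were called lower, where 0.671% of all tested genes were. MT2A measured 84.85, 45.5 and 45.2 FPKM in MOLM-13 controls and 64.4, 36.5 and 30.1 FPKM with JOA, and 77.3, 55.7 and 45.3 FPKM in THP-1 controls and 46.2, 39.5 and 33.7 FPKM with JOA. The first library was the highest in every group, so MT2A values overlapped between treatments, whereas each pair fell, by 0.49 on the log2 scale in common (SE 0.05). MT2A had the smallest adjusted p of all tested genes (limma, 0.0106) and stayed called without any 1 pair. MT1E, MT1F and MT1X had common log2 effects of −0.44, −0.36 and −0.31 without passing the test (limma adjusted p = 0.0597, 0.0898 and 0.0517), each lower in 5 of 6 pairs, and metallothionein transcripts are similar enough to share reads.

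IFITM1, an interferon-induced membrane protein, had the largest common fall of the called genes, −0.82 on the log2 scale (SE 0.15, limma adjusted p = 0.0235). It measured 1.67, 1.495 and 1.595 FPKM in MOLM-13 controls and 0.927, 0.705 and 0.968 FPKM with JOA, which did not overlap. These JOA values were all under 1 FPKM, so IFITM1 passed the filter in MOLM-13 only through its controls. Its fall in MOLM-13 and its rank are tied to that. In THP-1 IFITM1 measured 2.59, 2.80 and 1.88 FPKM in controls and 2.56, 1.34 and 0.620 FPKM with JOA, with nearly equal values in the first pair. Of 22 tested interferon-stimulated genes XAF1 was also called lower, and IRF9 and SAMHD1, a nucleotide-cleaving restriction factor, were called higher (log2 0.24 and 0.28). Over all tested genes 0.671% were called lower and 2.91% higher.

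MPO, the myeloperoxidase of early granulocyte and monocyte granules, fell in all 6 pairs. Its values were 22.0, 19.1 and 20.7 FPKM in MOLM-13 controls and 20.3, 16.8 and 18.9 FPKM with JOA, and 28.3, 19.1 and 13.2 FPKM in THP-1 controls and 18.5, 13.2 and 7.68 FPKM with JOA. The MPO groups overlapped in both lines, and the common effect was −0.39 (SE 0.08, limma adjusted p = 0.0363), with −0.14 in MOLM-13 and −0.64 in THP-1. Of 16 tested granule genes the other call was SRGN, the proteoglycan that packs granule proteins, which rose 1.25-fold in all 6 pairs (limma adjusted p = 0.0185). The shares of all tested genes were 2.91% called higher and 0.671% called lower.

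PHGDH, GPT2 and BCAT1 were among the 15 largest falls. PHGDH measured 7.33, 17.7 and 9.06 FPKM in MOLM-13 controls and 5.935, 12.2 and 7.39 FPKM with JOA, and 17.6, 15.7 and 12.8 FPKM in THP-1 controls and 14.6, 13.7 and 11.9 FPKM with JOA. The PHGDH groups overlapped in both lines, with the second MOLM-13 pair high in both treatments, and each pair fell (−0.28, SE 0.05, limma adjusted p = 0.0235). PSAT1, the next enzyme of the pathway, had an effect of −0.27 with 5 of 6 pairs lower and lost its call when any 1 pair was left out. GPT2, a mitochondrial alanine aminotransferase, and BCAT1, which starts the breakdown of branched-chain amino acids, had effects of −0.37 and −0.35. ASNS, asparagine synthetase, from the same ATF4 list, was not called, with −0.12 (limma adjusted p = 0.604) and opposite signs in the lines, −0.38 in MOLM-13 and 0.15 in THP-1.

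The other genes of the 15 largest falls were VAT1L, G0S2, an inhibitor of triglyceride lipase, NREP, the membrane protein MS4A4A, C3orf80, GCHFR, which regulates the first enzyme of biopterin synthesis, the ribosomal protein RPS29, PCLAF, a partner of the replication clamp, and the acute phase protein ORM1. VAT1L measured 3.09, 4.73 and 3.997 FPKM in MOLM-13 controls and 2.63, 2.98 and 3.46 FPKM with JOA, and 3.33, 3.07 and 2.56 FPKM in THP-1 controls and 1.12, 1.38 and 1.19 FPKM with JOA, with overlap in MOLM-13 alone (−0.78, SE 0.15, limma adjusted p = 0.0281). G0S2 had a common effect of −0.68, and its second MOLM-13 control, at 2.99 FPKM, stood above the other two at 0.755 and 1.33 FPKM. PCLAF measured 62.2, 56.3 and 68.8 FPKM in MOLM-13 controls and 50.3, 53.6 and 56.4 FPKM with JOA, and 63.8, 62.5 and 60.1 FPKM in THP-1 controls and 43.1, 51.9 and 50.04 FPKM with JOA, with overlap by 1 value in MOLM-13 (−0.29, SE 0.05, limma adjusted p = 0.0235). RPS29 was the one call among 77 tested ribosomal protein genes, whose median effect was −0.09, 0.01 in MOLM-13 and −0.17 in THP-1. Of all tested genes 0.671% were called lower.

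The cell cycle lists held no call. None of 40 tested mitosis genes and none of 52 tested genes of DNA replication and S phase was called with limma, with common medians of −0.03 and −0.05, and at an unadjusted p under 0.05 there were 6 and 9 lower and 0 higher. The medians of the lines lay on opposite sides of 0, −0.10 in MOLM-13 and 0.05 in THP-1 for mitosis and −0.13 and 0.02 for DNA replication, and 26 of the 40 and 32 of the 52 genes had opposite signs in the lines. MKI67, the proliferation marker, had a common log2 effect of −0.02 (SE 0.04, limma adjusted p = 0.816), PCNA, the replication clamp, −0.05 (SE 0.04, limma adjusted p = 0.402) and MCM2, of the replicative helicase, −0.11 (SE 0.04, limma adjusted p = 0.108) with all 6 pairs lower. No call was made either among 16 genes of G1 cyclins and CDK inhibitors, 31 of MYC and ribosome biogenesis, 40 nuclear genes of oxidative phosphorylation, 36 proteasome subunits, 12 tubulins, 18 MLL fusion partners and cofactors or 16 of MHC class I. At an unadjusted limma p under 0.05 the MYC and ribosome biogenesis list had 1 higher and 11 lower, oxidative phosphorylation 0 and 6, the cyclin list 2 and 4, MHC class I 4 and 4, the proteasome 2 and 0, tubulins 1 and 0 and the MLL list 0 and 1. The number to set beside all these counts is 2163 of the 9240 tested genes with such a p, in either direction.

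In the HOXA and MEIS1 program, which MLL fusions keep on, 2 of 12 tested genes were called, both lower, where 0.671% of all tested genes were, and the median was −0.14. JMJD1C, a chromatin protein, measured 16.9, 21.8 and 21.5 FPKM in MOLM-13 controls and 15.1, 18.9 and 20.7 FPKM with JOA, and 10.97, 12.3 and 12.5 FPKM in THP-1 controls and 9.44, 10.5 and 9.32 FPKM with JOA. Its groups overlapped in MOLM-13 and were separate in THP-1 (−0.21, SE 0.04, limma adjusted p = 0.0320). The transcription factor MEF2C fell by 0.15 on the log2 scale (limma adjusted p = 0.0467) and lost its call when any 1 pair was left out. HOXA9 and MEIS1 themselves were not called, with effects of 0.01 (limma adjusted p = 0.918) and −0.12 (limma adjusted p = 0.257).

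**Figure D4:**
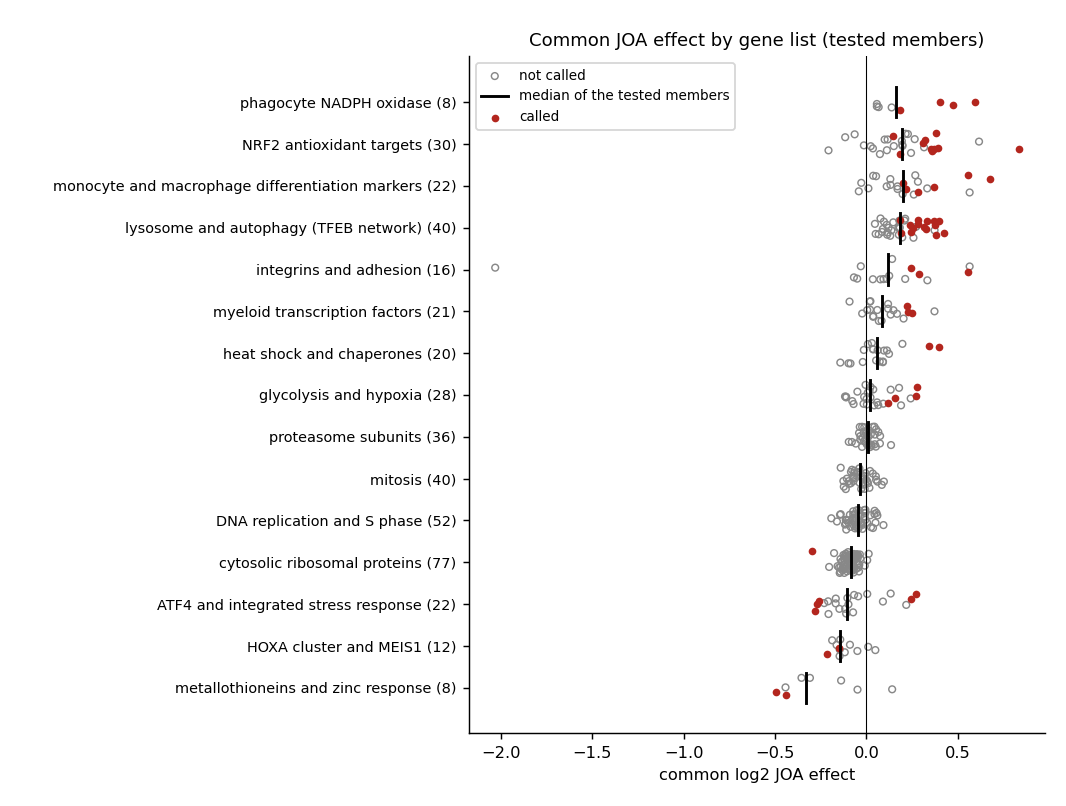
Common log2 JOA effect on the horizontal axis for the tested members of 15 gene lists, with the number tested in brackets, filled red points for called genes, open points for genes that were not called and a black bar for the list median. Called genes lie to the right of 0 in the oxidase, NRF2, monocyte and lysosome lists and to the left in the metallothionein and HOXA lists, and the mitosis and DNA replication lists hold open points alone.

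The remaining lists held few calls. Over all tested genes 2.91% were called higher and 0.671% lower. The cholesterol and fatty acid list, with 3.23% called higher, was near that share. Of 28 tested genes of glycolysis and hypoxia 4 were called higher, NDRG1, P4HA1, PKM and the lactate exporter SLC16A3, with log2 effects of 0.27, 0.27, 0.15 and 0.12. Of 19 tested genes of MAPK feedback and immediate early genes FOS and FOSL1, both subunits of the AP-1 transcription factor, were called higher, at 0.22 and 0.34. BAX, the pro-apoptotic channel protein, was called higher among 17 genes of the BCL2 family and, with PLK3, among 21 p53 targets, at 0.21 and 0.28. IFI30, a lysosomal thiol reductase of antigen processing, was called higher among 7 genes of the MHC class II list, TNFAIP2 among 15 of NF-kB cytokines, ACSL1 among 16 of lipid handling and PMVK among 31 of cholesterol and fatty acid synthesis, and the aldehyde dehydrogenase ALDH2 was called lower among 15 of its family. In a list of 8 stem and progenitor genes VAT1L was the one call.

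The size of the JOA effect differed between the lines in 95 of the 9240 genes (1.03%, limma adjusted p under 0.05 for the difference), and 7 of these were among the 331. CCPG1 had log2 effects of 0.13 in MOLM-13 and 0.77 in THP-1, MCEMP1 of 0.34 and 0.88, IL27RA of 0.15 and 0.62, ALOX5AP of 0.12 and 0.56, MPO of −0.14 and −0.64, NREP of −0.24 and −0.67, and VAT1L of −0.36 and −1.21. All 7 moved farther in THP-1, where the dose was 2 μM. For the other called genes a difference between the lines did not pass the test. At an unadjusted limma p under 0.05 the lines differed in 86 of the 331 called genes and in 1576 of all 9240. The common fit counts unlike effects of the lines as spread, so genes that differ are less likely to be called. Few differences among the 331 are therefore no evidence of like effects.

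Of 14 genes that the study's own description singled out in 1 line or the other, 5 passed the filter in both lines, and 3 of these were called in the common effect, all higher: ITGAM, FCER2 and HMOX1. The other 2 were not called. HLA-DRA, a class II antigen-presenting chain, measured 3.64, 2.14 and 3.38 FPKM in MOLM-13 controls and 4.98, 1.72 and 2.48 FPKM with JOA, and 70.9, 59.5 and 59.2 FPKM in THP-1 controls and 38.75, 34.9 and 36.5 FPKM with JOA, so its groups were separate in THP-1 alone (common effect −0.44, SE 0.14, limma adjusted p = 0.0990). CD99, a surface glycoprotein, measured 5.79, 5.55 and 3.53 FPKM in MOLM-13 controls and 5.40, 0.356 and 4.71 FPKM with JOA, and 0.207, 8.07 and 5.16 FPKM in THP-1 controls and 0.221, 0.222 and 0.173 FPKM with JOA. The libraries of CD99 fell into values from 0.173 to 0.356 FPKM and values of 3.53 FPKM or more, and both kinds occurred in both treatments (−2.03, SE 0.67, limma adjusted p = 0.109). Since these 14 genes were picked on these libraries, the 3 calls are no independent evidence of direction.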

How the data were processed

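Poly(A) RNA of 12 libraries, 3 per group, was sequenced from both ends in stranded mRNA libraries, and the authors deposited FPKM values per gene. The submitters' processing notes name the hg38 build, Trimmomatic, HISAT2, Cufflinks and HTSeq, and their versions and roles are not given in the sources used here. The columns outside these samples numbered 0.

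Genes whose FPKM averaged 1 or more in both lines were analysed on log2(FPKM + 0.1) with limma 3.58.1 in R 4.3.3, with a mean-variance trend. The model held 1 JOA effect and 6 blocks, the replicate number within line. A second fit gave each line its own effect in the same blocks. P-values were adjusted by the Benjamini-Hochberg method.

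Libraries were paired by replicate number, whose meaning the labels do not give. Over genes, deviations from the group mean correlated at 0.279 to 0.551 between control and JOA libraries of the same number and line. Between different numbers the correlations were −0.450 to 0.0226. Deviations within a group cancel, so the lower values follow in part from the higher ones and are no separate evidence of pairing.

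On simulated data with 9240 genes, this common effect fit recovered 81% of 100 genes changed by log2 0.3 and 96% of 100 changed by 0.6, with 10 false calls. The simulated noise was normal and drawn independently for each gene and library, and each effect was the same in both lines. It held no variation shared between genes, so these rates need not hold for the real libraries.

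Named genes were the 15 largest rises and 15 largest falls among called genes with all 6 pairs one way, up to 6 called members per list and direction, uncalled members of those lists, and genes the study names. For the lysosome, NRF2 and other lists with more calls, members past 6 were named after their values were seen. Members and lists were chosen with earlier results of these data known. Alternatives changed the pseudocount, filter, scaling, variance trend, block and pairs used. One alternative, the mean of separate line effects, was chosen after seeing the data. Promoters were matched by symbol to RefSeq (GRCh38.p14). Results for some genes that the naming rule covers are not reported here.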

Additional observations from a re-analysis of the deposited data

Results flagged for a closer look

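The difference between the JOA effects of the lines, THP-1 minus MOLM-13 on the log2 scale, passed a limma adjusted p of 0.05 for 7 of the genes called in common. It was 0.64 for CCPG1, 0.55 for MCEMP1, 0.47 for IL27RA and 0.44 for ALOX5AP, all higher with JOA in both lines on average, and −0.85 for VAT1L, −0.49 for MPO and −0.43 for NREP, all lower in both. The adjusted p ran from 0.0231 to 0.0406. ALOX5AP, whose product feeds leukotriene synthesis, measured 75.7, 81.3 and 88.9 FPKM in MOLM-13 controls and 86.3, 79.0 and 103 FPKM with JOA, and 22.4, 29.7 and 39.1 FPKM in THP-1 controls and 35.6, 41.1 and 57.2 FPKM with JOA. In CCPG1 the THP-1 values went from 9.95 to 11.9 FPKM in controls to 17.01 to 19.8 FPKM with JOA, while in MOLM-13 they overlapped, at 5.53 to 6.69 FPKM and 6.46 to 6.52 FPKM. The doses of the lines differed, so line and dose cannot be told apart.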

How the results depend on the processing

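All 331 called genes kept their direction in every alternative that tested them. The alternatives reuse the libraries that chose these genes, so kept direction is no independent support. Of 1759 alternative fold changes of 94 named genes 986 kept their side of the threshold, 773 did not and 0 turned. The number called higher and lower was 269 and 62. It moved to 169 and 26 when the FPKM average asked for was 0.1 and to 0 and 0 with any value above 0 (2645 at an unadjusted limma p under 0.05), where more genes were tested, to 98 and 13 without a variance trend, and to 8 and 3 past a log2 size of 0.58, which is a subset by construction. It was 0 and 0 with MOLM-13 alone and 829 and 376 with THP-1 alone, each a fit on fewer samples. For the mean of the line effects it was 736 and 258. That mean is the same estimate as the common effect, but its fit does not count a difference between the lines as spread. Quantile normalization gave 100 lower. Leaving out 1 pair gave 4 to 311 higher and 1 to 64 lower. Without the replicate block there were 2 higher and 0 lower, 0 genes differed between the lines, and 174 were called within THP-1 in place of 1298. The 95 genes that differed between the lines became 33 with an average FPKM of 0.1 or more, 176 after rescaling to TPM, 5 without a variance trend and 5 to 23 with 1 pair left out. Where no reason is stated the cause was not tested. Within MOLM-13 limma called 0 genes in the fit with both lines (1191 at an unadjusted p under 0.05).

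Of 94 named genes 3 (HIST1H2BK, MT2A and TFE3) stayed called in all 6 fits without 1 pair, and 8 (MEF2C, MNDA, ORM1, PKM, PLK3, PSAT1, SELPLG and SLC16A3) in none. FPKM carry no read number, so the precision of low values is unknown, and genes under the filter in 1 line could not show a shared effect.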

Other observations

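Several called genes outside the lists were picked out after their values were seen, because they stayed called without THP-1 pair 3 or without the replicate block. THEMIS2, a signalling adaptor of macrophages and B cells, measured 3.95, 4.42 and 3.96 FPKM in MOLM-13 controls and 5.79, 5.51 and 4.73 FPKM with JOA, and 6.19, 6.61 and 7.98 FPKM in THP-1 controls and 8.54, 9.04 and 10.4 FPKM with JOA. No THEMIS2 values overlapped within a line (1.32-fold, log2 0.40, SE 0.05, limma adjusted p = 0.0148). B4GALT5, a galactosyltransferase of glycolipid synthesis, went from 39.8, 40.5 and 39.7 FPKM to 54.0, 48.3 and 46.5 FPKM in MOLM-13 and from 49.1, 49.1 and 60.7 FPKM to 66.8, 65.9 and 73.2 FPKM in THP-1, also without overlap (1.27-fold, limma adjusted p = 0.0148).

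RGS18, a regulator of G protein signalling in myeloid cells and platelets, measured 4.68, 4.58 and 5.31 FPKM in MOLM-13 controls and 5.99, 6.485 and 6.29 FPKM with JOA, and 3.42, 3.01 and 3.81 FPKM in THP-1 controls and 4.68, 4.72 and 4.75 FPKM with JOA. RGS18 was separate in both lines and rose 1.33-fold (limma adjusted p = 0.0185). IGFBP4, which binds insulin-like growth factors, was called lower, with a common log2 effect of −0.25 (SE 0.04, limma adjusted p = 0.0235), and its values overlapped in both lines while all 6 pairs fell.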
